A study of Mus musculus with 27 samples.

Results

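The genes described here are 52 genes of the cell cycle, 27 that work in DNA replication and 25 that work in mitosis, followed in mouse bone marrow-derived macrophages (BMDM) that were naïve, acutely stimulated or re-stimulated with 1 of 4 Toll-like receptor (TLR) ligands. They were chosen by name: a probe belongs to the set when the gene name in the array's annotation equals 1 of the 52 symbols, which gave 73 probes among the 55681 non-control probes and 52 genes among the 32138 named on the array. For the 15 genes with several probes the probe with the highest mean over the arrays was used.

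Before a cell copies its DNA, the MCM helicase is loaded on replication origins with the help of Cdc6 and Cdt1, and cyclin E with its kinase Cdk2 then starts the helicase, the clamp and the polymerases. Transcription of these genes is driven largely by E2F factors as cells leave G1, whereas the genes of mitosis are transcribed later, in G2, under the MuvB complex with B-Myb and FoxM1. BMDM grown in medium with macrophage colony stimulating factor divide in culture, and TLR ligands are known to slow that division.

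Each array measured Cy3-labelled RNA of 1 BMDM culture. The bone marrow came from female C57BL/6 mice of 6 to 8 weeks, and the cells were differentiated for 7 days in medium conditioned by L929 cells, which secrete the growth factor. Naïve cells received no ligand. Acute cells received LPS (TLR4) or Pam3CSK4 (TLR2) at 100 ng/ml, Poly(I:C) (TLR3) at 10 µg/ml or CpG DNA (TLR9) for 4 h. Re-stimulated cells had the ligand for 24 h, were washed and left for 1 h, and then had the same ligand for 4 h more. By the study's methods, the cells were moved to medium without L929-conditioned medium before any ligand was given. Re-stimulated cells were thus longer without the growth factor than acute cells, and no ligand-free group is labelled with their time in culture. For re-stimulated cells, the ligand and the time without growth factor cannot be told apart. The sample labels give CpG at 100 µM and the study's methods give a lower concentration, so the CpG dose is uncertain. No group carries a transgene or a deletion. The study's gene expression methods state that marrow of several mice was pooled for each culture, with a separate pool for each replicate. Its bone marrow methods state instead that replicates came from different mice, 1 for each, so the make-up of a replicate is uncertain.

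Of 27 arrays, 25 have deposited normalized values and were used, which leaves 2 arrays each for LPS re-stimulated (replicates 1 and 2) and Pam3CSK4 acute (replicates 1 and 3) and 3 for every other group. Values are on the log2 scale, corrected for background by RMA and quantile normalized by the authors. The scanner marked between 42 and 54.3% of probes as well above background on 24 of the arrays used and 74.6% on naïve replicate 3. That array also stood apart in the genes described here. It lay below the mean of the other naïve arrays in 23 of 27 replication genes (median difference −0.44 on the log2 scale) and in 23 of 25 mitosis genes (median difference −1.24). Since every comparison with naïve cells uses it, the numbers of members and of all probes called in each are also given without it. Other counts are given with all 3 naïve arrays. The acute LPS arrays lie on 3 slides of their own, while the other groups share 3 slides. The acute LPS arrays were also scanned on other days and carry another version of the array design file. For acute LPS, slide, scan day, design version and stimulus therefore cannot be told apart.

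The cells carried their labelled identity: 7 of 7 macrophage markers (Adgre1, listed as Emr1, Csf1r, Cd68, Itgam, Mertk, Fcgr1 and Cd14) were well above background on every array of every group, with summed levels of 18.73 to 19.49. Of 7 markers of granulocyte and monocyte progenitors, which divide, 5 were above background on every naïve array and 1 or 2 on every array of each re-stimulated group. Their summed level was 11.86 to 12.87 in naïve cells and 11.13 to 12.76 over the re-stimulated groups, and 0 of those tested was called in any comparison with naïve cells. The summed level of 5 neutrophil markers was 10.5 to 16.64 in naïve cells and 8.86 to 9.28 after acute LPS, where 3 of the 5 were above background on no array. The 3 dendritic cell markers had summed levels of 16.21 to 16.31 in naïve cells and 14.86 to 16.02 over the re-stimulated groups, and the 4 erythroid markers, of which 2 were above background on no naïve array, 6.41 to 7.25 and 5.17 to 5.92. The summed level of 5 fibroblast markers was 6.78 to 8.23 in naïve cells, 8.89 to 9.51 in re-stimulated LPS cells and 8.53 to 8.81 in re-stimulated Poly(I:C) cells. In re-stimulated Poly(I:C) cells, markers of T cells and of B cells lay below the naïve range (11.36 to 11.5 against 11.62 to 11.89, and 7.85 to 8.03 against 8.06 to 9.1). T cell markers also lay below it after acute CpG (11.22 to 11.57), and the other groups overlapped it for both. The part of these cells in the results was not tested. In RNA from whole cultures, fewer cycling cells and less RNA of these genes per cell cannot be told apart.

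The mean of each list was highest in naïve cells, and the mean of the mitosis genes was lower in each re-stimulated group than in each acute group. Scaling arrays by their median instead moved the median change against naïve cells to 0.02 for replication genes in re-stimulated CpG cells, 0.07 in acute Poly(I:C) cells, and 0.16 for mitosis genes in acute CpG cells. The mean over the 27 replication genes was 9.90 ± 0.27 (SD, n = 3) in naïve cells. Acute means were 9.43 ± 0.15 (LPS), 9.18 ± 0.30 (CpG), 9.14 ± 0.32 (Pam3CSK4, n = 2) and 9.55 ± 0.17 (Poly(I:C)). In re-stimulated cells it was 8.53 ± 0.54 (n = 2) for LPS, 8.96 ± 0.33 for CpG, 9.15 ± 0.16 for Poly(I:C), and 9.13 ± 0.21 for Pam3CSK4. No re-stimulated array (8.15 to 9.31) reached the lowest naïve array (9.63), and 1 acute array did, Poly(I:C) replicate 3 at 9.7.

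The mean over the 25 mitosis genes was 8.68 ± 0.69 (SD, n = 3) in naïve cells. In acute cells it was 7.91 ± 0.31 for LPS, 8.38 ± 0.33 for CpG, 8.43 ± 0.30 for Poly(I:C), and 8.21 ± 0.19 (n = 2) for Pam3CSK4. In re-stimulated cells it was 5.98 ± 0.52 (n = 2) for LPS, 6.92 ± 0.43 for CpG, 6.59 ± 0.03 for Poly(I:C), and 6.97 ± 0.84 for Pam3CSK4. The highest re-stimulated array, 7.72, lay below the lowest naïve array, 7.90, and the acute arrays (7.61 to 8.77) overlapped the naïve range of 7.90 to 9.23. These are levels of intensity averaged over genes with different probes, so the lists cannot be set against each other.

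**Figure D1:**
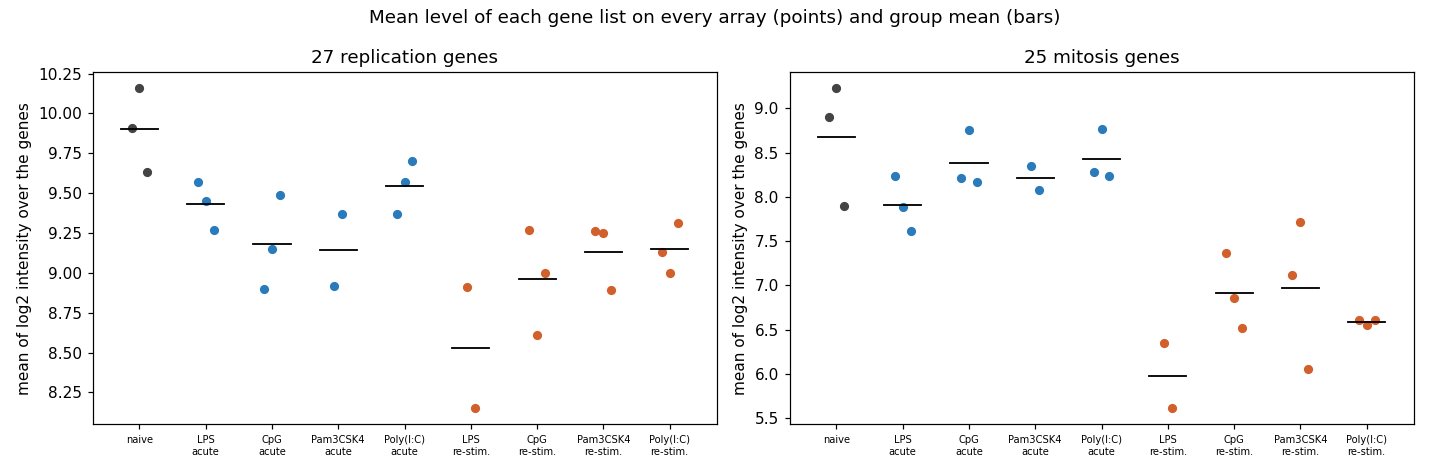
Mean log2 intensity over the 27 replication genes (left) and the 25 mitosis genes (right) on each of the 25 arrays (points) with the mean of each group (bars), naïve in grey, acute in blue and re-stimulated in orange; the vertical axes do not start at 0. Replication means of re-stimulated arrays (8.15 to 9.31) and mitosis means of re-stimulated arrays (5.61 to 7.72) lie below the lowest naïve arrays (9.63 and 7.90).

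The lists also differ in sequence upstream of their genes, which the choice of genes did not use. RefSeq promoters (GRCm38.p6, 250 bases before to 50 after the start) were at hand for 22 replication and 20 mitosis genes among 32851. The letters searched, on both strands, were TTTCGCGC, TTTGGCGC and TTTCCCGC, which E2F factors are known to bind, TTTGAA and TTCGAA, the cell cycle genes homology region (CHR) bound by MuvB, and CCAAT, the box bound by NF-Y. An E2F match was present in 10 of 22 replication promoters (45.5%), in 0 of 20 mitosis promoters and in 1.84% of all promoters. A CHR match was present in 4 of 22 replication promoters (18.2%), in 15 of 20 mitosis promoters (75%) and in 19.2% of all. CHR and CCAAT stood together in 4 of 22 replication promoters (18.2%), in 14 of 20 mitosis promoters (70%) and in 7.52% of all promoters. A match describes letters and is not a measured binding site.

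These promoters are examples of the contrast, which not every member shows. Each is printed for the 250 bases before the start, in the direction of the gene, with matches in capitals. Mcm5 and Mcm6 hold E2F and CCAAT matches, Kif11, Ube2c and Top2a CHR and CCAAT matches, and Ccne1 none of these letters. Of members not printed, Pcna and Rrm2 have no E2F match and Ccnb1 has no CHR match. Rfc4, Rfc5, Tyms, Tk1, Mad2l1, Birc5 and Nuf2 also have none of these letters, so that is not particular to Ccne1. Adjoining or overlapping matches form 1 run of capitals, as in Mcm5 and Mcm6, where opposite strands each hold an E2F match.
Mcm5, chr8:75109259-75109508, plus strand: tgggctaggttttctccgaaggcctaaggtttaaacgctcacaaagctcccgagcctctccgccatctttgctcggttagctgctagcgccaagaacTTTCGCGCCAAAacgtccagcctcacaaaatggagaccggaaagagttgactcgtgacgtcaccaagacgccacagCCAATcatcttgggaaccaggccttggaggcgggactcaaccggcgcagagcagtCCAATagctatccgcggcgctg
Mcm6, chr1:128359706-128359955, minus strand: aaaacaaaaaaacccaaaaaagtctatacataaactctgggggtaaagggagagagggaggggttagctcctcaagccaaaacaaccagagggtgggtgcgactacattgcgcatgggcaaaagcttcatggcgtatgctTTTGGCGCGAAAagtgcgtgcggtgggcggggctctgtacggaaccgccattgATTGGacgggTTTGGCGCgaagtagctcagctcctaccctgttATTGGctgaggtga
Ccne1, chr7:38107491-38107740, minus strand: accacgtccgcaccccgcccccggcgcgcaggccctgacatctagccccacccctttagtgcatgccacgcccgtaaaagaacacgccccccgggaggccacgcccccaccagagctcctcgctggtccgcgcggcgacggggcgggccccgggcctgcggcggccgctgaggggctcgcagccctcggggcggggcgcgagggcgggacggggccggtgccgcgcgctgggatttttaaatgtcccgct
Kif11, chr19:37376132-37376381, plus strand: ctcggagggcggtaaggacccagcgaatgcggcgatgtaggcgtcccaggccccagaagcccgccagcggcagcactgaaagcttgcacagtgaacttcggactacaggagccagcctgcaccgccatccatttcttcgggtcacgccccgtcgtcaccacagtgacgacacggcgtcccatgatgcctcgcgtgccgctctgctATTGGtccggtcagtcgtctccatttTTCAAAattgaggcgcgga
Ube2c, chr2:164769679-164769928, plus strand: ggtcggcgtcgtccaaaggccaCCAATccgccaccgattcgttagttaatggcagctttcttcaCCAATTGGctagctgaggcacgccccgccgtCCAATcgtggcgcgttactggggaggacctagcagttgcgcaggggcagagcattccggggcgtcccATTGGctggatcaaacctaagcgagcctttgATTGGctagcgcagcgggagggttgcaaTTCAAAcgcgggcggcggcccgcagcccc
Top2a, chr11:99024190-99024439, minus strand: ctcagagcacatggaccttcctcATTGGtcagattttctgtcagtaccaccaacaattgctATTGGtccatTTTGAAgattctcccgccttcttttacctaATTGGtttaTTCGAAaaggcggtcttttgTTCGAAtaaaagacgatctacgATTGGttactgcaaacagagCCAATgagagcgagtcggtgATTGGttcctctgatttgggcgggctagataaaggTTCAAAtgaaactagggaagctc

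Each stimulated group was compared with naïve cells gene by gene with limma. A gene entered the test when the scanner marked its probe well above background on 2 or more arrays of 1 of the groups, and was called when the Benjamini-Hochberg adjusted p over all probes tested was under 0.05 and the change at least 1.5-fold. Of the 52 genes, 49 were tested against naïve cells in each comparison. Ccne2, Aurkb and Cenpf were not, because their probes were above background on 0, 0 and 1 of the 3 naïve arrays. All 8 comparisons share the 3 naïve arrays, so their results are not independent and stand side by side.

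After acute stimulation, 9 of 26 replication genes fell under LPS, none of them called under median scaling, and 0 to 3 members passed the test for the other ligands. Acute LPS gave lower levels of 9 of 26 replication genes and 3 of 23 mitosis genes, where 14.8% of all genes tested were called lower, and higher levels of 2 replication genes, where 12.6% of all genes were called higher. The median change was −0.71 (log2) for replication genes, −0.98 for mitosis genes and −0.05 for all genes. In 17 of 26 replication genes and 7 of 23 mitosis genes each acute LPS array was below each naïve array, against 27% of all genes. The neutrophil markers had changes of −9.18 to −3.32 here, with 1 of 5 called, and their part was not tested. The 14 calls became 30 without naïve replicate 3, 7 and 6 without naïve replicates 1 and 2, and 6, 5 and 9 without LPS acute replicates 1, 2 and 3. Over all probes, 7917 of 29931 were called with every array and 10961 of 28960 without naïve replicate 3. The other left-out arrays gave 5420, 4845, 4443, 4038 and 6358 probes in the same order.

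Acute CpG gave 3 lower members, Cdt1, Pold1 and Ndc80, where 3% of all genes tested were called lower. The median change was −0.82 for replication genes and −0.24 for mitosis genes, or −0.14 and 0.16 under median scaling. Without naïve replicate 3 there were 11 calls, without naïve replicate 1 or 2 or CpG acute replicate 1 or 2 there were 0, and with the replicate number as a block there were also 0 (adjusted p 0.0734 for Cdt1, 0.0648 for Pold1 and 0.0654 for Ndc80). Over all probes, 1598 of 27954 were called with every array, 2881 of 26001 without naïve replicate 3 and 108 to 209 without those other arrays. The block left 586 probes called. In 16 of 26 replication genes and 1 of 23 mitosis genes each CpG acute array was below each naïve array, against 20.2% of all genes.

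Acute Poly(I:C) gave 1 lower member, Cdt1, where 2.49% of all genes tested were called lower. The median change was −0.37 for replication genes and −0.27 for mitosis genes, or 0.07 and 0.00 under median scaling. Leaving out naïve replicate 3 gave 7 calls, leaving out replicate 3 of the acute group 4, and leaving out naïve replicate 1 or 2 or acute replicate 1 or 2 gave 0. Over all probes, 1713 of 28425 were called with every array, 2909 of 26976 without naïve replicate 3 and 2641 of 28107 without acute replicate 3. The other left-out arrays gave 183 to 394 probes. In 11 of 26 replication genes and 1 of 23 mitosis genes each acute array was below each naïve array, against 18.9% of all genes. In the blocked fit Cdt1 was no longer called (adjusted p 0.0626) and Ndc80 was (change −1.33, adjusted p 0.0446).

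Acute Pam3CSK4 gave 0 calls by limma among the members, where 0% of all genes were called. At an unadjusted p under 0.05 there were 14 members, and the smallest adjusted p of a member was 0.288. The median change was −0.86 for replication genes and −0.44 for mitosis genes. In 20 of 26 replication genes and 2 of 23 mitosis genes both Pam3CSK4 acute arrays were below each naïve array, against 18% of all genes. Without naïve replicate 3 there was 1 call, a mitosis gene, where 584 of 26051 probes were called. With all 9 groups in 1 limma fit 7 replication genes were called lower, where 826 of 27842 probes were. With the slide as a random block 11 were, where 1343 probes were.

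After re-stimulation, members of both lists fell with each ligand, and for each ligand the median change was deeper for mitosis genes than for replication genes, whose CpG median was 0.02 under median scaling. Re-stimulated LPS gave lower levels of 4 of 26 replication genes and 11 of 23 mitosis genes, where 2.67% of all genes tested were called lower. Its median change was −1.35 for replication genes and −3.01 for mitosis genes. There were 38 calls without naïve replicate 3, and 0 without naïve replicate 1, naïve replicate 2 or either LPS re-stimulated array. Over all probes, 1584 of 27913 were called with every array and 6460 of 25800 without naïve replicate 3. Without naïve replicates 1 and 2 these were 133 and 253 probes, and without either LPS re-stimulated array 0. Both LPS re-stimulated arrays lay below each naïve array in 20 of 26 replication and 22 of 23 mitosis genes, against 25.3% of all genes.

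Re-stimulated CpG gave lower levels of 10 replication and 9 mitosis genes, where 7.15% of all genes tested were called lower. Its median change was −0.99 for replication genes, which was 0.02 under median scaling, and −1.95 for mitosis genes, −1.29 under median scaling. Each re-stimulated CpG array lay below each naïve array in 21 of 26 replication and 20 of 23 mitosis genes, against 21.1% of all genes. There were 40 calls without naïve replicate 3 and 1, 1, 7, 0 and 1 without naïve replicates 1 and 2 and CpG re-stimulated replicates 1, 2 and 3. Over all probes, 3710 of 28175 were called with every array and 7030 of 26426 without naïve replicate 3. The other left-out arrays gave 1018, 926, 808, 704 and 1120 probes in the same order. With the replicate block there were again 19 members called, of which 11 were shared with the unblocked fit, and they split into 2 replication and 17 mitosis genes.

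Re-stimulated Pam3CSK4 gave lower levels of 3 replication and 2 mitosis genes, where 3.05% of all genes tested were called lower. Its median change was −0.75 for replication genes and −1.89 for mitosis genes. Each re-stimulated Pam3CSK4 array lay below each naïve array in 18 of 26 replication and 15 of 23 mitosis genes, against 16.9% of all genes. There were 23 calls without naïve replicate 3 and 0 when any other array of the comparison was left out. Over all probes, 1497 of 27944 were called with every array, 4205 of 25997 without naïve replicate 3 and 18 to 494 without another array. Blocking on the replicate number left 0 members and 6 probes called, and the adjusted p of the 5 genes was 0.0582 to 0.0758.

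Re-stimulated Poly(I:C) gave lower levels of 10 replication and 15 mitosis genes, where 4.73% of all genes tested were called lower, and a higher level of 1 replication gene, Ccne1, where 4.8% were called higher. Its median change was −0.98 for replication genes and −2.67 for mitosis genes. Each re-stimulated Poly(I:C) array lay below each naïve array in 16 of 26 replication and 19 of 23 mitosis genes, against 20.9% of all genes. There were 33 calls without naïve replicate 3, 5 and 3 without naïve replicates 1 and 2, and 4, 3 and 29 without Poly(I:C) re-stimulated replicates 1, 2 and 3. Over all probes, 2565 of 28411 were called with every array and 4283 of 26685 without naïve replicate 3. The other left-out arrays gave 559, 491, 360, 440 and 3045 probes in the same order. Blocking on the replicate number left 14 members called, 2 replication and 12 mitosis genes, all lower.

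Part of the mitosis genes passed the background filter only through the naïve arrays, where they are high, so that the counts above include genes that had to differ: 8 of the 23 tested for LPS, 2 for CpG, 4 for Poly(I:C), and 3 for Pam3CSK4. Of the mitosis genes above background in both groups, 8 of 15 (LPS), 9 of 21 (CpG), 2 of 20 (Pam3CSK4) and 13 of 19 (Poly(I:C)) were called lower, where 2.57, 7.18, 2.99 and 4.77% of all genes above background in both groups were. In 15, 20, 15 and 16 of them each re-stimulated array lay below each naïve array, against 26, 21.7, 17.4 and 21.9% of all such genes. Among these mitosis genes the median change was −2.88 (LPS), −2.10 (CpG), −1.91 (Pam3CSK4) and −2.67 (Poly(I:C)). For replication genes above background in both groups it was −1.35, −0.99, −0.75 and −0.98. Under median scaling the median change of all probes against naïve cells was 0.11 to 0.78. Relative to that median, mitosis genes of re-stimulated cells were at −3 (LPS), −2.07 (CpG), −1.89 (Pam3CSK4) and −2.60 (Poly(I:C)), and replication genes at −1.14, −0.76, −0.72 and −0.77. In re-stimulated cells that scaling left 3, 0, 0 and 1 replication genes and 14, 6, 5 and 15 mitosis genes called lower, in the same order of ligands. Over all probes it left 333 of 27913, 498 of 28175, 436 of 27944 and 407 of 28411 called lower.

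**Figure D2:**
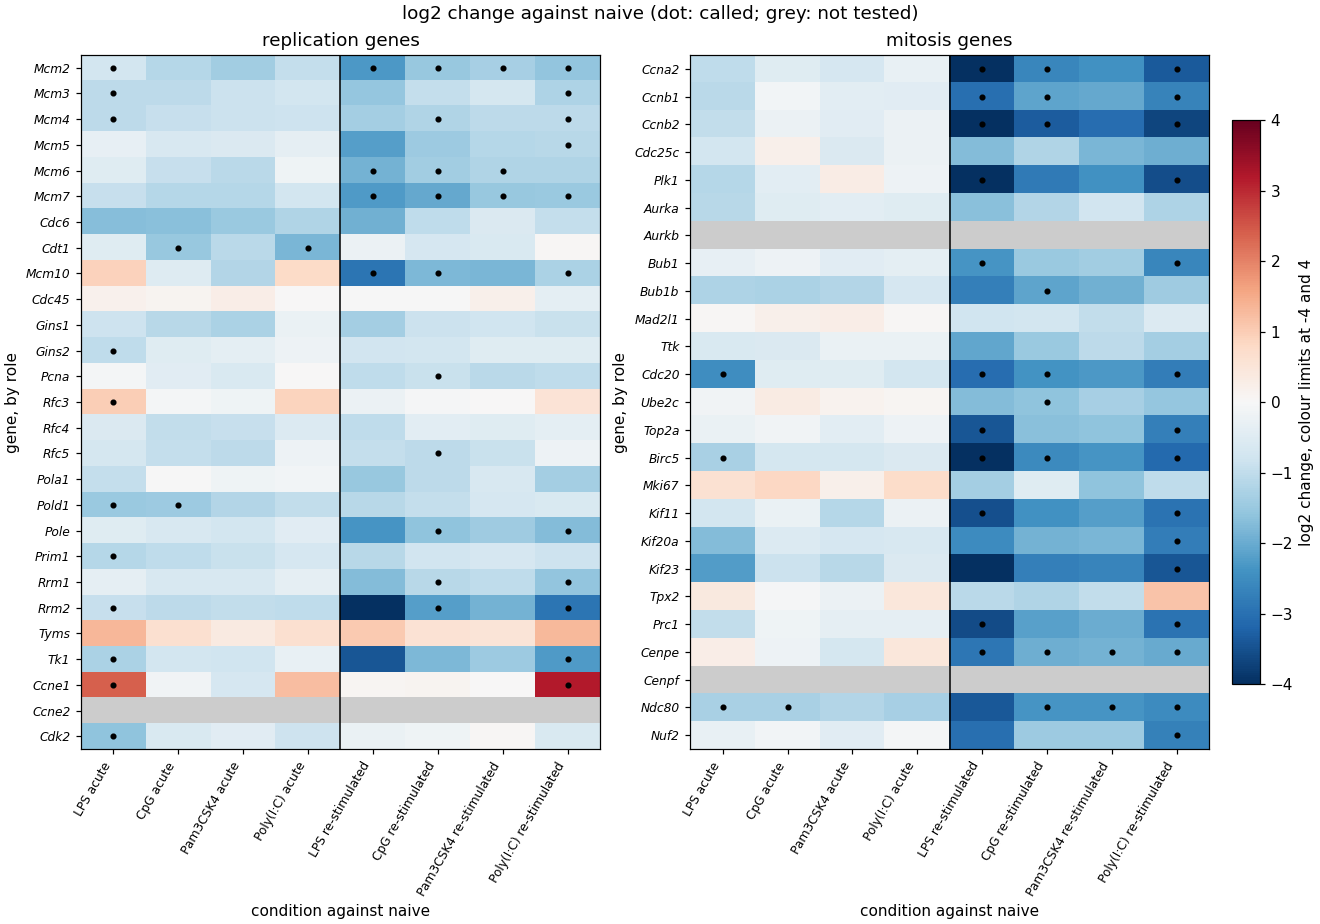
log2 change against naïve cells of each replication gene (left) and mitosis gene (right), in rows by role, for the 4 acute and 4 re-stimulated groups in columns; colour runs from −4 (blue) to 4 (red), a dot marks a called gene and grey a gene not tested. In the re-stimulated columns 11, 9, 2 and 15 mitosis genes carry a dot for LPS, CpG, Pam3CSK4 and Poly(I:C), and Ccne1 is the member called higher in re-stimulated cells.

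Among the replication genes, 2 that license origins were called lower with each ligand in re-stimulated cells. Mcm2 to Mcm7 encode the subunits of the replicative helicase. Mcm2 and Mcm7 were these, by −2.31 and −2.27 for LPS, −1.51 and −2.06 for CpG, −1.57 and −1.50 for Poly(I:C), and −1.32 and −1.53 for Pam3CSK4. Mcm6 was called lower with LPS (−1.90), CpG (−1.39) and Pam3CSK4 (−1.21), and its −1.20 with Poly(I:C) had an adjusted p of 0.0619. Mcm3 was called with Poly(I:C) (−1.23), and Mcm4 with CpG (−1.20) and Poly(I:C) (−1.06). With the replicate block, which applies to CpG, Pam3CSK4 and Poly(I:C), the calls of Mcm2 (adjusted p 0.0532 to 0.0804), Mcm3 (0.0808), Mcm4 (0.0624 and 0.0579) and Mcm6 (0.0938 and 0.0729) were lost, and so was the Pam3CSK4 call of Mcm7 (0.0598), whose other calls were not. After acute LPS, Mcm2 (−0.73), Mcm3 (−1.05) and Mcm4 (−1.04) fell.

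Mcm5 read 10.88, 11.01 and 10.54 in naïve cells. Acute values were 10.40, 10.19 and 10.86 for LPS, 9.84, 10.26 and 10.40 for CpG, 10.46, 10.51 and 10.37 for Poly(I:C), and 10.22 and 10.22 for Pam3CSK4. In re-stimulated cells it read 9.53 and 7.67 for LPS, 9.99, 8.47 and 9.60 for CpG, 9.69, 9.48 and 9.94 for Poly(I:C), and 10.33, 9.63 and 9.02 for Pam3CSK4. Each re-stimulated array lay below the naïve range, and acute LPS overlapped it. The change was called for re-stimulated Poly(I:C), the group with the least spread (−1.10 ± 0.22 SE, adjusted p 0.0346, and 0.0846 with the block), and was larger but not called for LPS (−2.21 ± 0.58, adjusted p 0.094).

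Cdc6, which loads the helicase with Cdt1, was a dim probe. It read 5.85, 6.29 and 5.42 in naïve cells. Acute values were 5.11, 4.71 and 2.66 for LPS, 3.36, 4.44 and 4.76 for CpG, 3.58, 4.43 and 5.94 for Poly(I:C), and 3.77 and 4.93 for Pam3CSK4. Re-stimulated values were 5.10 and 2.78 for LPS, 5.14, 4.41 and 4.93 for CpG, 4.67, 4.45 and 5.62 for Poly(I:C), and 5.72, 4.95 and 5.14 for Pam3CSK4. It was called in no comparison with naïve cells. Its probe was well above background on 0 of 3 acute CpG arrays, so the level there has only an upper bound and was at least 3.17-fold lower than in naïve cells (adjusted p 0.0814). A bound sets the mean of the measured group against a level for each dim array. That level is the gene's own reading or the lowest signal marked as well above background there, whichever is higher. A bound can therefore equal the plain difference of the readings, as it does here for Cdc6.

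Cdt1, the other loading factor, was called after acute stimulation with CpG and Poly(I:C) and in no re-stimulated group. Its values are given because it was the called gene after acute Poly(I:C), a choice made after they were seen. It read 12.95, 12.90 and 12.42 in naïve cells. After acute CpG it read 10.93, 11.27 and 11.50, and after acute Poly(I:C) 10.74, 10.73 and 11.33. Neither group overlapped naïve cells, and the changes were −1.52 ± 0.25 (adjusted p 0.0286) and −1.82 ± 0.26 (adjusted p 0.0191). In re-stimulated Poly(I:C) cells it read 12.73, 12.82 and 12.81, within the naïve range, with a change of 0.04 ± 0.20 (adjusted p 0.932). Acute LPS gave 12.31, 12.42 and 12.10 (−0.48, adjusted p 0.157), and acute Pam3CSK4 11.34 and 12 (−1.09, adjusted p 0.316). Leaving out naïve replicate 1 or 2 gave an adjusted p of 0.103 and 0.12 (CpG) and 0.0782 and 0.0847 (Poly(I:C)), and leaving out acute replicate 1 or 2 gave 0.0936 and 0.117 (CpG) and 0.0928 and 0.101 (Poly(I:C)).

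Of the genes that activate the helicase, Mcm10, which starts origin firing, fell in re-stimulated LPS (−2.92), CpG (−1.80) and Poly(I:C) cells (−1.26), and had −1.84 with Pam3CSK4 (adjusted p 0.0628). The CpG and Poly(I:C) calls were lost under the block (0.0658 and 0.0632). After acute LPS its change was 0.92 (adjusted p 0.0526). Gins2, a subunit of the GINS complex, fell after acute LPS (−1.01, adjusted p 0.0115). Its partner Gins1 was called in no comparison with naïve cells, with changes of −1.36 to −0.26. Cdc45, which joins the helicase with GINS, was also called in none, and its changes lay between −0.40 and 0.25.

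Pcna, the sliding clamp that holds polymerases on DNA, read 15.72, 15.57 and 15.14 in naïve cells. Acute values were 15.58, 15.63 and 14.98 for LPS, 15.00, 14.81 and 15.31 for CpG, 15.69, 15.47 and 15.30 for Poly(I:C), and 14.87 and 14.89 for Pam3CSK4. Re-stimulated values were 14.39 and 14.53 for LPS, 14.60, 14.56 and 14.57 for CpG, 14.33, 14.00 and 15.04 for Poly(I:C), and 14.14, 14.30 and 14.75 for Pam3CSK4. Re-stimulated arrays lay below the naïve range and acute LPS, CpG and Poly(I:C) overlapped it. The fall was called for CpG (−0.90 ± 0.20, adjusted p 0.0388, and 0.0691 with the block), where under median scaling the difference was 0.40 (adjusted p 0.645).

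Rfc3, Rfc4 and Rfc5 encode subunits of the clamp loader and differed in direction. Rfc3 rose after acute LPS from 8.11, 8.35 and 8.65 to 9.28, 9.26 and 9.48 (0.97 ± 0.21, adjusted p 0.0197), and stood at 0.90 after acute Poly(I:C) (adjusted p 0.0672). The rise after LPS was not called without naïve replicate 1 or 2 or LPS acute replicate 1 or 2 (adjusted p 0.0603 to 0.0662). Rfc5 fell in re-stimulated CpG cells (−1.06, adjusted p 0.04, and 0.0724 with the block). After acute LPS its 2 probes disagreed, −0.69 (not called) for the probe used and 1.41 (called higher, adjusted p 0.0131) for the other. Rfc4 was called in no comparison with naïve cells, with changes of −1.03 to −0.39.

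Among the polymerases, the catalytic subunits of DNA polymerase delta and epsilon were called at different steps. Pold1 fell after acute LPS (−1.49 ± 0.17, adjusted p 0.00249), from 10.65, 10.75 and 10.79 to 9.17, 9.21 and 9.34, and after acute CpG (−1.45, adjusted p 0.0402). Its re-stimulated changes were −1.10 to −0.61 and none was called. Pole fell in re-stimulated CpG (−1.60) and Poly(I:C) cells (−1.73), had −2.36 with LPS (adjusted p 0.0532) and was not called in acute cells (−0.74 to −0.46). Both calls of Pole were lost under the block (0.0614 and 0.0601). Prim1, the primase subunit, fell after acute LPS (−1.14, adjusted p 0.00916). Pola1, the catalytic subunit of polymerase alpha, was called in no comparison with naïve cells, and its re-stimulated changes were −1.53 to −0.64.

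Nucleotide supply includes Rrm2, whose fall was called for 3 of the 8 stimulated groups. Rrm2, the regulated subunit of ribonucleotide reductase, read 11.73, 11.81 and 11.27 in naïve cells. Acute values were 10.96, 10.7 and 10.41 for LPS, 10.08, 10.58 and 10.98 for CpG, 10.27, 10.51 and 10.94 for Poly(I:C), and 10.15 and 11.12 for Pam3CSK4. Re-stimulated values were 8.67 and 5.88 for LPS, 10.35, 9.21 and 8.65 for CpG, 8.95, 8.38 and 8.70 for Poly(I:C), and 10.46, 10.66 and 8.02 for Pam3CSK4. No stimulated array reached the naïve range.

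The fall of Rrm2 in re-stimulated cells was called for Poly(I:C) (−2.93 ± 0.24, adjusted p 0.00586) and CpG (−2.20 ± 0.45, adjusted p 0.0307). For LPS the change was −4.33 ± 0.84 and the largest of the replication list, but the 2 arrays lay far apart and the adjusted p was 0.0557. The acute LPS fall was called as well (−0.92, adjusted p 0.037) but was lost when any array of that comparison other than naïve replicate 3 was left out. The CpG fall was lost without naïve replicate 1 or 2 or CpG re-stimulated replicate 2 or 3 (adjusted p 0.074 to 0.109). The re-stimulated Poly(I:C) fall was called in each of 18 alternatives (adjusted p 0.00124 to 0.0349). Rrm1, the large subunit, fell with CpG (−1.11) and Poly(I:C) (−1.57), calls lost under the block (0.0597 and 0.0633). Tk1, thymidine kinase, fell after acute LPS (−1.26) and in re-stimulated Poly(I:C) cells (−2.27, lost under the block at 0.092), and had −3.43 in re-stimulated LPS cells (adjusted p 0.0891). Tyms, thymidylate synthase, had changes of 0.36 to 1.32 in all 8 comparisons with naïve cells, and none was called.

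Ccne1 was called higher in 2 of the 8 comparisons with naïve cells and lower in none. Ccne1, cyclin E1, read 9.87, 9.94 and 10.03 in naïve cells. Acute values were 12.51, 12.39 and 12.16 for LPS, 9.49, 9.19 and 10.78 for CpG, 11.95, 11.20 and 10.43 for Poly(I:C), and 8.70 and 9.84 for Pam3CSK4. Re-stimulated values were 10.33 and 9.73 for LPS, 10.30, 9.09 and 10.81 for CpG, 13.66, 13.83 and 11.83 for Poly(I:C), and 10.08, 9.99 and 9.76 for Pam3CSK4. Acute LPS and both Poly(I:C) groups lay above the naïve range, and the 2 Pam3CSK4 acute arrays lay below it.

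Ccne1 rose by 2.40 ± 0.18 after acute LPS (adjusted p 0.000852), which was called in each of 18 alternatives. It rose by 3.16 ± 0.55 in re-stimulated Poly(I:C) cells (adjusted p 0.0254), where replicate 3 was lower than the others. This rise was lost without naïve replicate 1 or 2 (adjusted p 0.0847 and 0.0863), without Poly(I:C) re-stimulated replicate 1 or 2 (0.0961 and 0.0891) and with the replicate block (0.0562). The second probe of the gene gave 2.58 (adjusted p 0.00332) and 3.72 (adjusted p 0.0213) in these comparisons, both called higher. In acute Poly(I:C) cells the change was 1.24 (adjusted p 0.13), and it was called without acute replicate 3 (1.62, adjusted p 0.0351).

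Cdk2, the kinase of cyclin E, read 8.75, 8.51 and 7.90 in naïve cells. Acute values were 7.06, 7.16 and 6.11 for LPS, 7.34, 8.10 and 7.88 for CpG, 7.32, 7.58 and 7.75 for Poly(I:C), and 7.80 and 8.10 for Pam3CSK4. Re-stimulated values were 8.33 and 7.88 for LPS, 8.50, 8.32 and 7.84 for CpG, 7.90, 8.01 and 7.38 for Poly(I:C), and 8.80, 8.66 and 7.87 for Pam3CSK4. It fell after acute LPS (−1.61 ± 0.37, adjusted p 0.0231), and the re-stimulated groups overlapped naïve cells, with changes of −0.62 to 0.05. Ccne2, cyclin E2, was above background on none of the 25 arrays. It read 2.24, 2.83 and 1.81 in naïve cells and between 1.69 and 3.22 on the stimulated arrays, and was not tested.

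**Figure D3:**
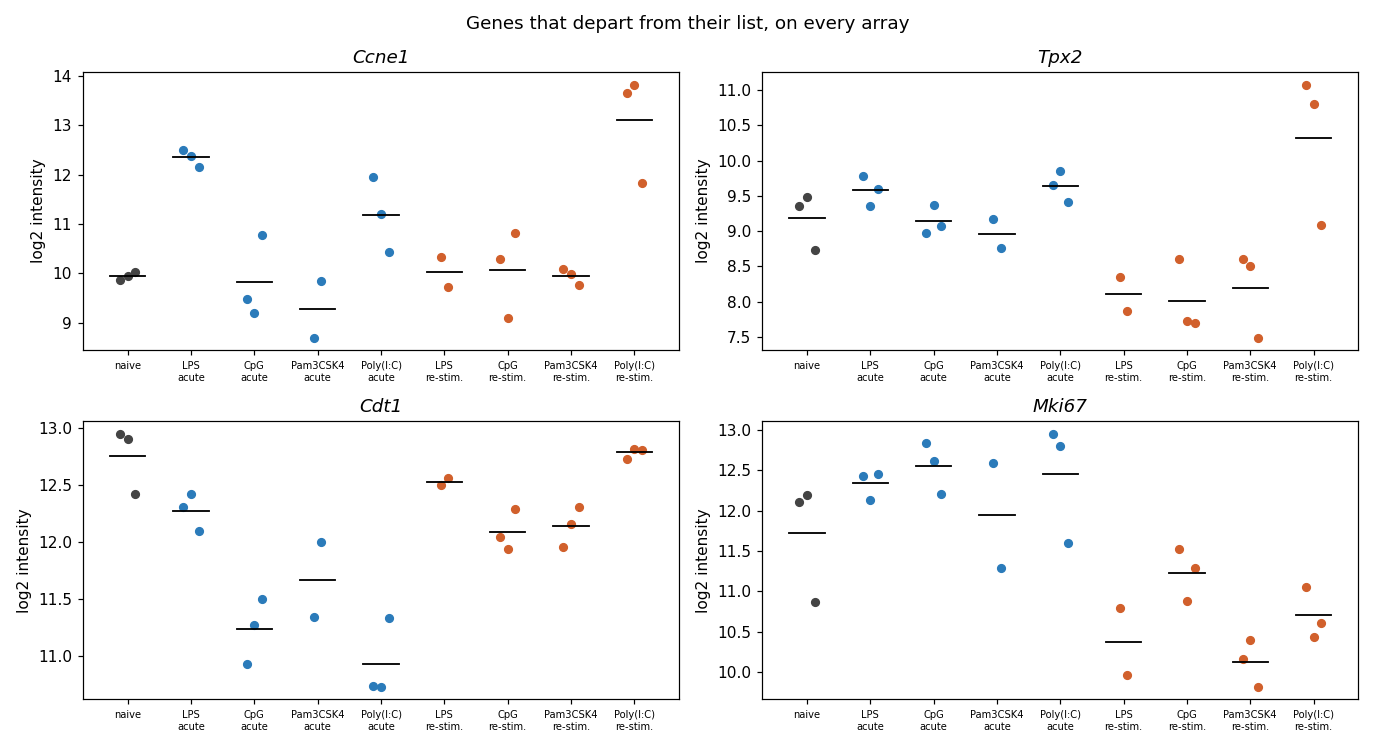
log2 intensity of Ccne1, Tpx2, Cdt1 and Mki67 on each array (points) with group means (bars), naïve in grey, acute in blue and re-stimulated in orange; the vertical axes do not start at 0. Ccne1 is highest in re-stimulated Poly(I:C) (11.83 to 13.83) and acute LPS (12.16 to 12.51), and Cdt1 is lowest after acute CpG and Poly(I:C) (10.73 to 11.50).

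The cyclins of mitotic entry among the mitosis genes are Ccnb1, Ccnb2 and Ccna2. Ccnb2, cyclin B2, read 11.68, 11.91 and 10.31 in naïve cells. Acute values were 10.58, 10.15 and 10.18 for LPS, 11.29, 11.44 and 10.45 for CpG, 11.17, 11.54 and 10.50 for Poly(I:C), and 11.26 and 10.47 for Pam3CSK4. Re-stimulated values were 7.05 and 5.36 for LPS, 8.95, 7.95 and 6.97 for CpG, 8.22, 7.30 and 7.34 for Poly(I:C), and 8.48, 9.35 and 6.90 for Pam3CSK4. Each re-stimulated array was below each naïve array, while each acute group overlapped them.

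The fall of Ccnb2 in re-stimulated cells was −5.10 ± 0.72 for LPS (adjusted p 0.032), −3.34 ± 0.63 for CpG (adjusted p 0.0253), −3.68 ± 0.50 for Poly(I:C) (adjusted p 0.015) and −3.06 ± 0.72 for Pam3CSK4 (adjusted p 0.0667, not called). The LPS value was the largest fall of the mitosis list. Ccna2, cyclin A2, fell by −4.75 (LPS), −2.62 (CpG) and −3.35 (Poly(I:C)), and had −2.42 for Pam3CSK4 (adjusted p 0.142). Ccna2 entered the LPS test only through the naïve arrays, where it is high, so its LPS call lends no support.

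Ccnb1, cyclin B1, read 9.88, 10.37 and 9.05 in naïve cells. Acute values were 9.02, 8.89 and 8.16 for LPS, 9.52, 10.18 and 9.27 for CpG, 9.12, 9.62 and 9.20 for Poly(I:C), and 9.54 and 9.14 for Pam3CSK4. Re-stimulated values were 7.08 and 6.41 for LPS, 8.27, 7.65 and 7.05 for CpG, 7.31, 7.23 and 6.76 for Poly(I:C), and 7.51, 8.77 and 6.89 for Pam3CSK4. Re-stimulated arrays lay below the naïve range. The fall was called for LPS (−3.02), CpG (−2.11) and Poly(I:C) (−2.67) and not for Pam3CSK4 (−2.05, adjusted p 0.0925). Cdc25c, the phosphatase that activates the cyclin B kinase, was above background on no re-stimulated array. Against naïve cells it was at least 3.31-fold lower for LPS, 2.28-fold for CpG, 3.03-fold for Pam3CSK4 and 3.9-fold for Poly(I:C), and none of these was called (adjusted p 0.109 to 0.238).

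Plk1, a kinase that drives mitotic entry and division, read 10.88, 11.20 and 9.23 in naïve cells. Acute values were 9.57, 9.07 and 9.30 for LPS, 9.99, 10.74 and 9.35 for CpG, 10.13, 10.73 and 9.88 for Poly(I:C), and 10.08 and 11.42 for Pam3CSK4. Re-stimulated values were 6.64 and 5.38 for LPS, 8.65, 7.76 and 6.38 for CpG, 7.16, 7.06 and 6.44 for Poly(I:C), and 8.38, 9.30 and 6.40 for Pam3CSK4. Pam3CSK4 replicate 2 (9.30) was the re-stimulated array that reached the naïve range.

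The fall of Plk1 was called for Poly(I:C) (−3.55 ± 0.55, adjusted p 0.0197) and LPS (−4.43 ± 0.73, adjusted p 0.0421). For CpG it was −2.84 (adjusted p 0.0559, and 0.0235 with the replicate block), and for Pam3CSK4 −2.41 (adjusted p 0.154). Aurka, the kinase of the spindle poles, was called in no comparison with naïve cells, and its re-stimulated changes were −1.68 to −0.77. Aurkb, the kinase of the chromosomal passenger complex, was above background on 1 of 25 arrays. It read 3.08, 4.47 and 1.81 in naïve cells and between 1.58 and 4.87 on the stimulated arrays, and was not tested.

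Of the 4 spindle checkpoint genes, 2 were called in re-stimulated cells. Bub1 fell in re-stimulated LPS (−2.36) and Poly(I:C) cells (−2.61), and Bub1b, which encodes the BubR1 protein, in CpG cells (−2.10). Bub1 entered the LPS test only through the naïve arrays, where it is high, so its LPS call lends no support. Mad2l1 was called in no comparison with naïve cells, with re-stimulated changes of −0.98 to −0.54. Ttk, the Mps1 kinase, was above background on no re-stimulated array and was at least 3.46-fold lower than in naïve cells for LPS, 2.79-fold for CpG, 1.91-fold for Pam3CSK4 and 2.55-fold for Poly(I:C), none called (adjusted p 0.171 to 0.43). Cdc20, which activates the anaphase-promoting complex, fell after acute LPS (−2.48 ± 0.46, adjusted p 0.0116) and in re-stimulated LPS (−3.06), CpG (−2.39) and Poly(I:C) cells (−2.78). The acute LPS fall of Cdc20 was called in each of 18 alternatives.

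Ube2c, the ubiquitin-conjugating enzyme of that complex, read 10.22, 10.56 and 9.28 in naïve cells. Acute values were 10.14, 9.87 and 9.62 for LPS, 10.45, 10.81 and 9.77 for CpG, 10.11, 10.51 and 9.66 for Poly(I:C), and 10.62 and 9.72 for Pam3CSK4. Re-stimulated values were 8.32 and 8.22 for LPS, 8.76, 8.51 and 8.00 for CpG, 8.89, 8.39 and 8.10 for Poly(I:C), and 9.16, 9.23 and 7.66 for Pam3CSK4. Acute cells overlapped naïve cells and re-stimulated cells did not. The fall was called for CpG (−1.60 ± 0.39, adjusted p 0.0463), and for Poly(I:C) the second probe was called (−3.78, adjusted p 0.00734) where the probe used was not (−1.56, adjusted p 0.0637).

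Top2a, the topoisomerase that untangles chromosomes, read 9.51, 9.82 and 8.49 in naïve cells. Acute values were 9.13, 8.85 and 9.05 for LPS, 9.12, 9.44 and 8.80 for CpG, 9.02, 9.56 and 8.67 for Poly(I:C), and 9.10 and 8.63 for Pam3CSK4. Re-stimulated values were 6.47 and 5.26 for LPS, 8.15, 7.55 and 7.11 for CpG, 6.49, 6.73 and 6.45 for Poly(I:C), and 8.16, 8.63 and 6.24 for Pam3CSK4. The re-stimulated LPS, CpG and Poly(I:C) arrays lay below the naïve range and Pam3CSK4 replicate 2 reached it. The fall was called for Poly(I:C) (−2.72 ± 0.37, adjusted p 0.0151) and LPS (−3.41 ± 0.56, adjusted p 0.0417), and for CpG with the replicate block (−1.67, adjusted p 0.0422, against 0.0547 without it).

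Birc5, survivin, a subunit of the chromosomal passenger complex, read 12.59, 13.05 and 11.78 in naïve cells. Acute values were 11.24, 11.03 and 11.22 for LPS, 11.62, 12.31 and 11.42 for CpG, 11.78, 12.29 and 11.64 for Poly(I:C), and 11.71 and 11.81 for Pam3CSK4. Re-stimulated values were 9.08 and 7.92 for LPS, 10.76, 9.81 and 9.21 for CpG, 9.54, 9.29 and 9.24 for Poly(I:C), and 10.13, 11.02 and 9.15 for Pam3CSK4. Each re-stimulated array, and each acute LPS array, lay below the naïve range. It fell after acute LPS (−1.31, adjusted p 0.0339) and in re-stimulated LPS (−3.97), CpG (−2.55) and Poly(I:C) cells (−3.11 ± 0.35, adjusted p 0.00943, called in each of 18 alternatives).

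Mki67, which encodes the proliferation antigen Ki-67, read 12.11, 12.19 and 10.87 in naïve cells. Acute values were 12.43, 12.13 and 12.45 for LPS, 12.84, 12.61 and 12.21 for CpG, 12.95, 12.80 and 11.60 for Poly(I:C), and 12.59 and 11.29 for Pam3CSK4. Re-stimulated values were 10.79 and 9.97 for LPS, 11.53, 10.88 and 11.29 for CpG, 11.06, 10.44 and 10.61 for Poly(I:C), and 10.17, 10.40 and 9.82 for Pam3CSK4. Re-stimulated LPS and Pam3CSK4 lay below the naïve range, and no change against naïve cells was called (0.21 to 0.83 acute, −1.60 to −0.49 re-stimulated).

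**Figure D4:**
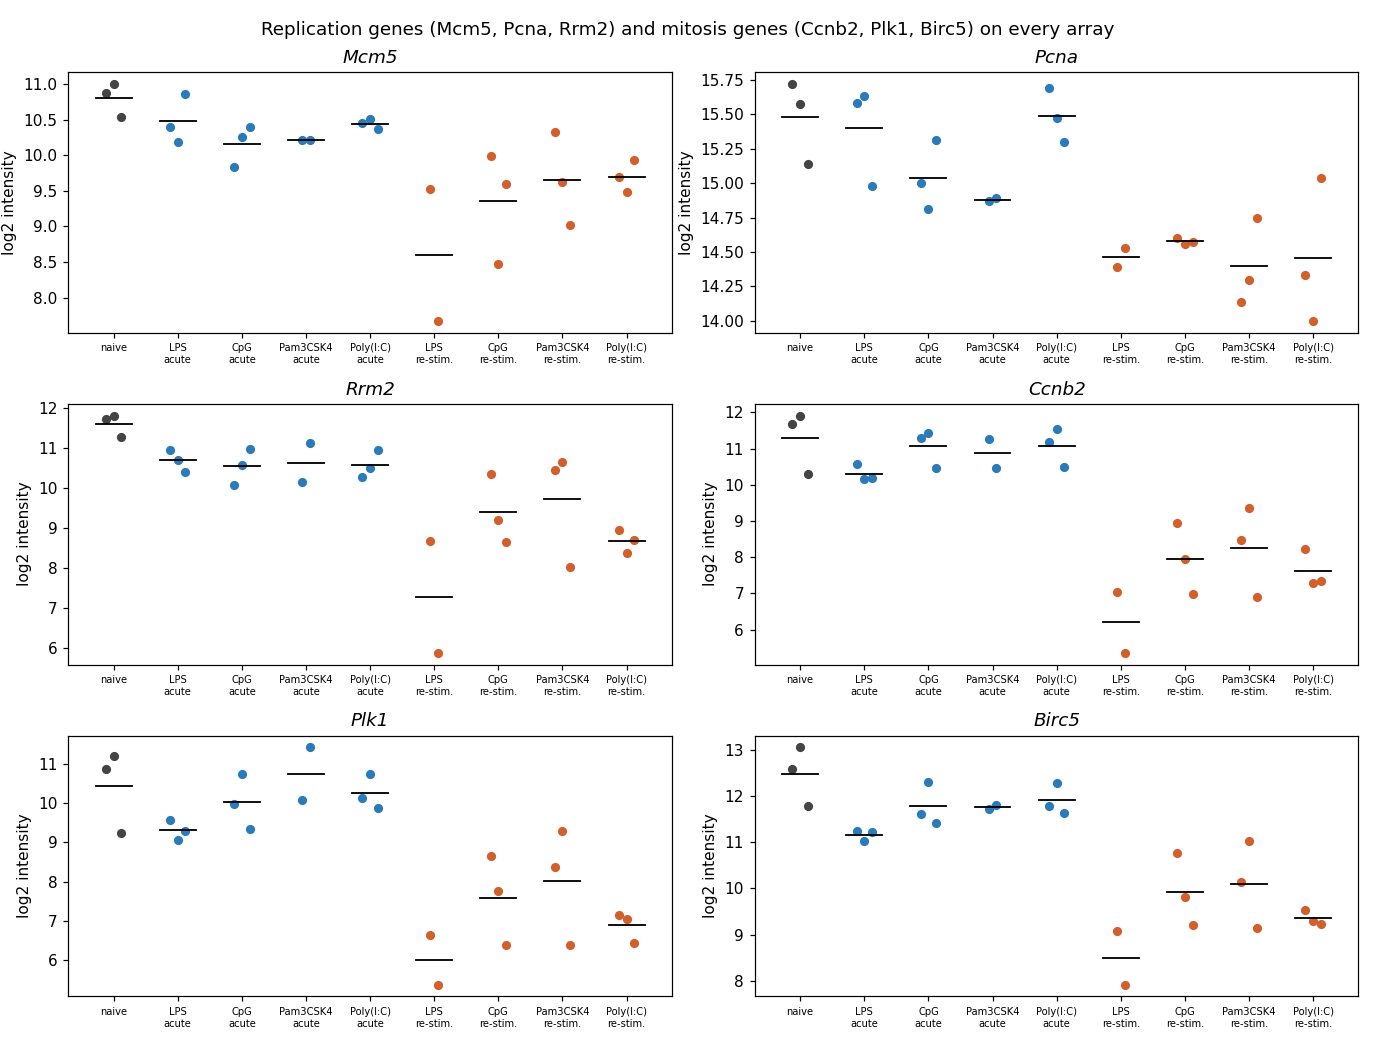
log2 intensity of 3 replication genes (Mcm5, Pcna, Rrm2) and 3 mitosis genes (Ccnb2, Plk1, Birc5) on each array (points) with group means (bars), naïve in grey, acute in blue and re-stimulated in orange; the vertical axes do not start at 0. Re-stimulated Ccnb2 lies between 5.36 and 9.35 and naïve Ccnb2 between 10.31 and 11.91.

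Of the motors and spindle proteins, 4 were called lower in re-stimulated Poly(I:C) cells, of which Kif11 and Kif23 had to differ. The fifth, Tpx2, was not called lower. Kif11, the motor that separates spindle poles, was above background on no re-stimulated LPS or Poly(I:C) array and was at least 11.5-fold and 7.7-fold lower there than in naïve cells (adjusted p 0.0436 and 0.0206). Kif23, a motor of cytokinesis, was above background on none of those arrays either. It was at least 19.9-fold lower for LPS, which was not called (adjusted p 0.0649), and at least 10.8-fold lower for Poly(I:C) (adjusted p 0.0351). Under the block the Poly(I:C) call of Kif23 was lost (0.0598). Kif11 and Kif23 entered these tests only through the naïve arrays, where they are high, so their adjusted p and calls lend no support. Kif20a, another motor of cytokinesis, fell with Poly(I:C) (−2.77, lost under the block at 0.064), and Prc1, which bundles microtubules at the midzone, with LPS (−3.58) and Poly(I:C) (−2.96).

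Tpx2, which targets Aurora A to the spindle, read 9.36, 9.49 and 8.73 in naïve cells. Acute values were 9.78, 9.36 and 9.60 for LPS, 8.97, 9.37 and 9.07 for CpG, 9.66, 9.86 and 9.42 for Poly(I:C), and 9.17 and 8.76 for Pam3CSK4. Re-stimulated values were 8.35 and 7.87 for LPS, 8.61, 7.72 and 7.69 for CpG, 11.08, 10.81 and 9.09 for Poly(I:C), and 8.60, 8.51 and 7.49 for Pam3CSK4. Poly(I:C) replicates 1 and 2 lay above the naïve range and replicate 3 within it, and the other re-stimulated groups lay below it. The Poly(I:C) difference, 1.13 ± 0.56, was the largest positive value of the mitosis list and was not called (adjusted p 0.25). Without Poly(I:C) re-stimulated replicate 3 it was 1.75 (adjusted p 0.0324).

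At the kinetochore, Cenpe, a motor that moves chromosomes, fell with each ligand in re-stimulated cells, by −2.88 for LPS, −1.95 for CpG, −2.02 for Poly(I:C), and −1.89 for Pam3CSK4. Under the replicate block the Pam3CSK4 and Poly(I:C) falls were not called (adjusted p 0.0582 and 0.0737). Ndc80, the microtubule-binding subunit, fell after acute LPS (−1.29) and CpG (−1.30) and in re-stimulated CpG (−2.37), Pam3CSK4 (−2.37) and Poly(I:C) cells (−2.52), and had −3.38 with LPS (adjusted p 0.0526). The Pam3CSK4 call of Ndc80 was lost under the block (0.0758). Its partner Nuf2 fell with Poly(I:C) (−2.71, lost under the block at 0.0997) and had −3.01 with LPS (adjusted p 0.0582). Cenpf was above background on 1 of 25 arrays and was not tested.

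Re-stimulated cells were then compared with acute cells of the same ligand, which leaves the naïve arrays out. More mitosis than replication genes were called lower in re-stimulated cells for 3 of the 4 ligands, and Pam3CSK4 gave no call. These counts include mitosis genes that passed the filter only through the acute arrays, where they are high. They were 7 of 22 (LPS), 1 of 22 (CpG), 1 of 21 (Pam3CSK4) and 3 of 22 (Poly(I:C)). Of mitosis genes above background in both groups, 11 of 15, 5 of 21, 0 of 20 and 13 of 19 were called lower. For replication genes these were 11, 1, 0 and 6 of 25, so the LPS counts were equal. Over all genes tested 16.1, 1.8, 0 and 2.74% were called lower. The share over all genes above background in both groups was not computed here. The median change of mitosis genes was −2.05 (LPS), −1.63 (CpG), −1.25 (Pam3CSK4) and −2.22 (Poly(I:C)). The median change of replication genes was −0.55, −0.18, 0.01 and −0.45, and under median scaling −0.38, 0.10, 0.37 and −0.24. Each CpG re-stimulated array was below each CpG acute array in 22 of 22 mitosis genes tested and in 4 of 26 replication genes, against 12% of all genes. For Poly(I:C) these were 20 of 22 and 12 of 26 against 15.5%, for Pam3CSK4 17 of 21 and 6 of 26 against 15.6%, and for LPS 20 of 22 and 12 of 26 against 29.5%.

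Poly(I:C) gave 15 mitosis and 6 replication genes called lower than in acute cells, where 2.74% of all genes tested were called lower, and Cdt1 called higher (1.86 ± 0.22, adjusted p 0.0206), where 2.39% were called higher. The 6 replication genes were Mcm7, Mcm10, Pole, Rrm1, Rrm2 and Tk1. Without Poly(I:C) acute replicate 1 or 2 or re-stimulated replicate 1 or 2 there were 0 calls, and 22 and 29 without acute and re-stimulated replicate 3. Over all probes these were 0, and 2514 and 3266, against 1338 of 27138 with every array. In the blocked fit the calls of Mcm7 (adjusted p 0.0553) and Tk1 (0.0581) were lost, which left 4 replication genes called lower, and Ccne1 was called higher too (1.92, adjusted p 0.044).

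LPS gave 17 mitosis and 11 replication genes called lower than in acute cells, where 16.1% of all genes tested were called lower, and Cdk2 called higher (1.33 ± 0.37, adjusted p 0.0349), where 18.2% were called higher. Cenpe (−3.16), Ccnb2 (−4.10) and Plk1 (−3.30) fell, and Ccne1 fell by 2.32 ± 0.26 (adjusted p 0.00184). Left-out arrays gave 15 to 31 calls, the lowest without LPS re-stimulated replicate 2. Over all probes they gave 4065 to 11010 calls, against 9770 of 28588 with every array. These states differ in slide, scan day and design version, so none of these can be told apart from the state. Each of the 5 neutrophil markers was called higher in re-stimulated than in acute LPS cells (4.61 to 11.96), and their part in the differences was not tested.

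CpG gave 5 mitosis genes called lower than in acute cells, Ccnb1 (−2), Ccnb2 (−3.10), Ube2c (−1.92), Mki67 (−1.32) and Cenpe (−1.74), and 1 replication gene, Pola1 (−1.01), where 1.8% of all genes tested were called lower. There were 10 calls without CpG acute replicate 3 and 0 when any of the other arrays was left out. Over all probes these were 2037 and 43 to 212, against 917 of 25737 with every array. In the blocked fit 8 mitosis genes were called, among them Plk1, Cdc20, Top2a and Prc1, and not Cenpe (adjusted p 0.0555) or Pola1 (0.0512). Pam3CSK4 gave 0 calls by limma, where 0% of all genes were called, with 9 members at an unadjusted p under 0.05 and a smallest adjusted p of 0.215. With all 9 groups in 1 fit 4 mitosis genes were called lower, where 532 of 25427 probes were.

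**Figure D5:**
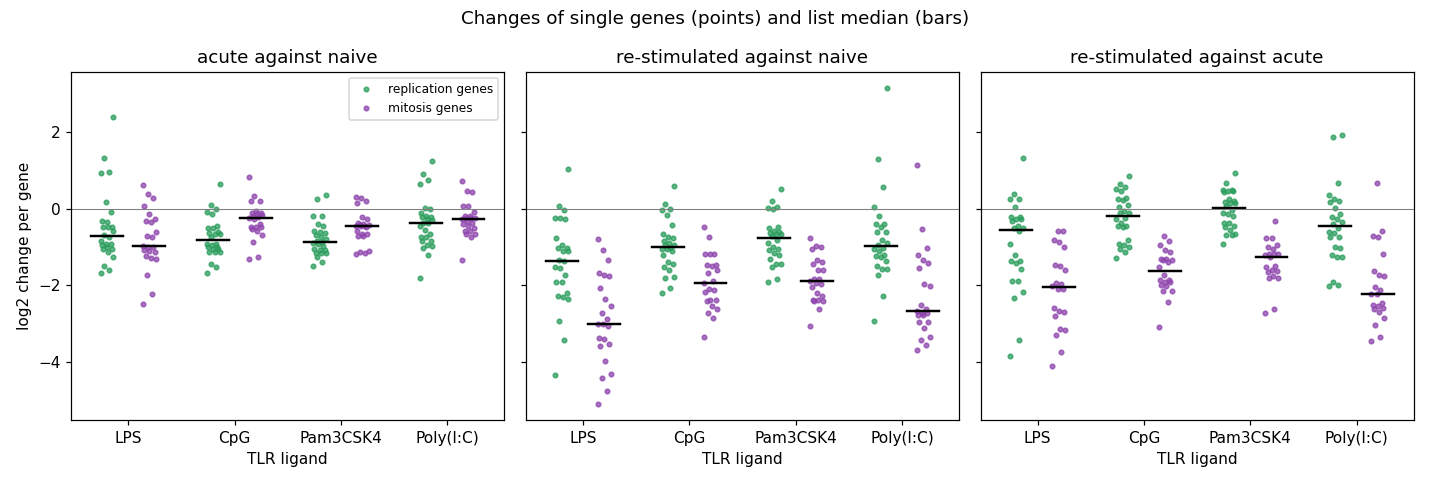
log2 change of each tested replication gene (green) and mitosis gene (purple) with the median of each list (bar), for acute against naïve, re-stimulated against naïve and re-stimulated against acute cells of each ligand. Medians of mitosis genes are −3.01 to −1.89 for re-stimulated against naïve cells, and those of replication genes −1.35 to −0.75, of which the CpG median is 0.02 under median scaling.

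The 4 re-stimulated groups were compared with each other in 1 limma fit of all groups, over 6 pairs. Members were called in the pairs with Poly(I:C). Ccne1 was lower with LPS (−3.08 ± 0.59, adjusted p 0.00941), CpG (−3.04 ± 0.53, adjusted p 0.00179) and Pam3CSK4 (−3.16 ± 0.53, adjusted p 0.000528) than with Poly(I:C). Tpx2 was lower by −2.22 ± 0.46 (adjusted p 0.0143), −2.32 ± 0.41 (adjusted p 0.00194) and −2.13 ± 0.41 (adjusted p 0.00175). Cdt1 (−0.70 and −0.65) and Rfc5 (−0.86 and −0.69) were lower with CpG and with Pam3CSK4 than with Poly(I:C). Taking LPS, CpG and Pam3CSK4 in turn these were 2, 4 and 4 calls, where 1.12, 5.31 and 7.3% of all genes tested were called lower than with Poly(I:C), so the CpG and Pam3CSK4 counts lie near the share over all genes. With the 2 groups of a pair alone in the fit there were 0, 0 and 1 calls, and with all 27 arrays 1, 0 and 0.

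Among the other pairs of re-stimulated groups, limma called 0 members. LPS against CpG had 13 members at an unadjusted p under 0.05 and a smallest adjusted p of 0.23, LPS against Pam3CSK4 21 and 0.0906, and CpG against Pam3CSK4 1 and 0.941. Over all genes tested 0.0575, 1.82 and 0.162% were called in these pairs. Rrm2 differed by −2.13 ± 0.72 (SE) between LPS and CpG and by −2.44 ± 0.72 between LPS and Pam3CSK4, and Top2a by −1.74 ± 0.54 and −1.81 ± 0.54. With the replicate number as a block 5 mitosis genes were called lower with LPS than with Pam3CSK4, where 210 of 24753 probes were.

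Further genes of the same processes, listed with earlier results of these data known, were tested in the same fits. Of 35 further replication genes 33 were tested against naïve cells, and those called lower were 18, 6, 0 and 0 after acute LPS, CpG, Pam3CSK4 and Poly(I:C) and 4, 9, 4 and 7 in re-stimulated cells. Over all genes the shares called lower were 14.8, 3, 0 and 2.49% in acute and 2.67, 7.15, 3.05 and 4.73% in re-stimulated cells. Those called higher were 1, 0, 0 and 1 after acute stimulation and 0 in each re-stimulated group, where 12.6, 3.01, 0 and 3.76% of all genes in acute and 3.45, 6.46, 2.44 and 4.8% in re-stimulated cells were. Chaf1a, a subunit of the histone chaperone CAF-1, fell after acute LPS (−1.83) and CpG (−1.47) and in re-stimulated cells with LPS (−1.70), CpG (−1.41), Pam3CSK4 (−1.05) and Poly(I:C) (−1.33). Dut, which removes dUTP, fell after acute LPS (−1.17) and in each re-stimulated group (−1.88, −1.66, −1.32 and −1.74 in the same order). Against these, Timeless, a fork protection factor, rose after acute LPS (1.59) and fell in re-stimulated Pam3CSK4 cells (−1.71), and Rpa2, a subunit of the single-strand binding protein, rose after acute Poly(I:C) (1.18).

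Of 41 further mitosis genes 40 were tested, and those called lower were 11, 3, 0 and 1 after acute LPS, CpG, Pam3CSK4 and Poly(I:C) and 14, 22, 7 and 23 in re-stimulated cells, against the same shares over all genes, with re-stimulated medians of −2.21, −1.74, −1.56 and −1.80. Aspm, a spindle pole protein, fell by −5.63, −3.78 and −4.12 in re-stimulated LPS, CpG and Poly(I:C) cells. Fbxo5, an inhibitor of the anaphase-promoting complex, fell after acute LPS (−2.05), CpG (−1.87) and Poly(I:C) (−1.83) and in each re-stimulated group (−1.89, −2.12, −1.59 and −1.59). Pttg1, securin, rose after acute LPS (1.10) and Poly(I:C) (0.88) and in re-stimulated Poly(I:C) cells (1.03).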

How the data were processed

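Cy3-labelled RNA was hybridised to 1-colour Agilent mouse arrays, 1 array per culture. The deposited values are log2 intensities. The authors made these log2 values from the scanner signals with RMA, which corrects for background and quantile normalizes, in limma. The deposited scanner intensities and flags gave the marks for well above background and the values of the alternatives. Values made again from the intensities differed from the deposited ones by a median of 0.0355 (largest 1.08). Quantile normalization gives each array the same distribution and can hide a shift common to most genes.

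The members and lists were chosen with earlier results of these data known. Groups were taken from the sample labels, and 0 columns of sample values stayed unmapped. Probes that reached background marks on 2 or more arrays of 1 group entered a limma (3.58.1, in R 4.3.3) fit of the 2 groups compared, and p-values were adjusted by Benjamini-Hochberg over all probes tested. The call needed an adjusted p under 0.05 and a 1.5-fold change. Pairs of re-stimulated groups came from 1 fit of 9 groups. The fit was tested on simulated data. All 52 members are named, and values of every array are given for a fixed choice of 14 of them and for the member with the largest rise and the largest fall of each list. Outside acute LPS, arrays of the same replicate number share a slide, and the deviations of same-numbered arrays correlated at 0.14 to 0.52 in the paired comparisons with naïve cells (CpG acute, Poly(I:C) acute, and CpG, Pam3CSK4 and Poly(I:C) re-stimulated), so the number was also used as a block. The p-values measure the spread between these cultures, and the number of arrays limits the precision. The 2 arrays with no deposited values entered 1 alternative, made from intensities. Alternatives were other background corrections, scalings, filters, probe choices, fits and left-out arrays.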

Additional observations from a re-analysis of the deposited data

Results flagged for a closer look

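Members that differed between re-stimulated Poly(I:C) cells and the other re-stimulated groups were called by limma's test of the difference itself. Poly(I:C) against LPS gave 2 called members, Ccne1 (−3.08) and Tpx2 (−2.22). Against CpG there were 4, Cdt1 (−0.70), Rfc5 (−0.86), Ccne1 (−3.04) and Tpx2 (−2.32). Against Pam3CSK4 there were 4, Cdt1 (−0.65), Rfc5 (−0.69), Ccne1 (−3.16) and Tpx2 (−2.13). Over all genes tested 1.12, 5.31 and 7.3% were called lower than with Poly(I:C), and the counts against CpG and Pam3CSK4 lie near these shares. With the 2 groups of a pair alone in the fit there were 0, 0 and 1 calls. Negative log2 differences mean a lower level than with Poly(I:C). Poly(I:C) replicate 3 was below replicates 1 and 2 in Ccne1 and Tpx2, and without it 4, 4 and 6 members were called. Over all probes 1084, 4287 and 4987 were then called, against 541, 2338 and 3320 with every array. Against LPS, 0 members were called without Poly(I:C) replicate 1 or either LPS array.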

How the results depend on the processing

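Counts of called members moved with the processing, and so did the calls over all probes. For re-stimulated LPS against naïve cells these were 0 to 6460 when 1 array was left out, against 1584 with every array. For acute Pam3CSK4 they went from 0 to 2724 with the slide as a random block. Of 583 values for single genes, alternatives kept direction and side of the threshold 8892 times, lost a call 697 times, gained one 689 times and reversed 3 times: Pcna in re-stimulated CpG against naïve cells under median scaling (0.40), and Cdk2 (−0.08) and Ndc80 (0.10) in re-stimulated against acute LPS with all 27 arrays. The causes were not tested. The number of arrays limits the precision, and dim probes such as Cdc6 carry bounds.

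Against naïve cells, acute LPS (14 calls) gave 23 with normexp, 3 with median scaling and 9 with no detection filter. Acute CpG (3) gave 11 with normexp, 5 with 75th percentile scaling, 0 with median scaling, 0 with no filter, 6 with detection on every array, 14 with the slide as a random block and 13 in the fit of 9 groups. Acute Poly(I:C) (1) gave 7 with normexp, 0 with median scaling, 9 with the slide and 5 with 9 groups. Acute Pam3CSK4 (0) gave 11 with the slide and 7 with 9 groups. Re-stimulated LPS (15) gave 35 with normexp, 28 with percentile scaling, 0 with no filter, 24 with detection on every array, 23 with the mean of all probes, 42 with the slide, 0 with all 27 arrays and 40 with 9 groups. Re-stimulated CpG (19) gave 38 with normexp, 31 with percentile scaling, 6 with median scaling, 4 with no filter, 40 with the slide and 37 with 9 groups. Re-stimulated Pam3CSK4 (5) gave 21, 8, 0, 36 and 32 with normexp, percentile scaling, no filter, the slide and 9 groups. Re-stimulated Poly(I:C) (26) gave 17 with median scaling and 16 with no filter.

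Re-stimulated against acute LPS (29) gave 8 with all 27 arrays. Re-stimulated against acute CpG (6) gave 12 with normexp, 0 with no filter, 10 with detection on every array, 22 with the slide and 15 with 9 groups. Re-stimulated against acute Pam3CSK4 (0) gave 10 with the slide and 4 with 9 groups. Between re-stimulated groups, LPS against Pam3CSK4 (0) gave 6 with the slide. LPS against Poly(I:C) (2) gave 4 with the slide, 1 with all 27 arrays and 0 with the 2 groups alone. CpG against Poly(I:C) (4) gave 2, 0 and 0 with median scaling, 27 arrays and the 2 groups alone. Pam3CSK4 against Poly(I:C) (4) gave 2, 2, 0 and 1 with median scaling, no filter, 27 arrays and the 2 groups alone.

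With the replicate block, calls went from 3 to 0 (acute CpG), 5 to 0 (re-stimulated Pam3CSK4) and 26 to 14 (re-stimulated Poly(I:C)) against naïve cells. Some comparisons were not taken as paired because they hold only 2 same-numbered pairs of arrays, though these pairs share a slide. Among them, re-stimulated LPS against naïve cells went from 15 to 33. Re-stimulated LPS against Pam3CSK4 went from 0 to 5 and against Poly(I:C) from 2 to 4. Same-numbered arrays correlated at 0.02 to 0.03 for acute LPS, 0.05 to 0.13 for re-stimulated LPS and 0.50 to 0.55 for acute Pam3CSK4.

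Leaving out 1 array gave, against naïve cells, 5 to 30 calls (acute LPS), 0 to 11 (acute CpG), 0 to 1 (acute Pam3CSK4), 0 to 7 (acute Poly(I:C)), 0 to 38 (re-stimulated LPS), 0 to 40 (re-stimulated CpG), 0 to 23 (re-stimulated Pam3CSK4) and 3 to 33 (re-stimulated Poly(I:C)). Re-stimulated against acute cells it gave 15 to 31, 0 to 10, 0 and 0 to 29 in that order. Between re-stimulated groups it gave 0 to 8 for LPS against Pam3CSK4, 0 to 4 for LPS against Poly(I:C), 2 to 5 for CpG against Poly(I:C) and 2 to 10 for Pam3CSK4 against Poly(I:C).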

Other observations

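Regulators of the cell cycle outside the 52 genes were tested in the same fits. Of 40 such genes tested against naïve cells, 8, 3, 0 and 3 were called lower and 6, 2, 0 and 3 higher after acute LPS, CpG, Pam3CSK4 and Poly(I:C), where 14.8, 3, 0 and 2.49% of all genes were called lower and 12.6, 3.01, 0 and 3.76% higher. In re-stimulated cells 4, 7, 3 and 7 were called lower and 0, 1, 0 and 4 higher, in the same order, where 2.67, 7.15, 3.05 and 4.73% of all genes were called lower and 3.45, 6.46, 2.44 and 4.8% higher. Foxm1, a transcription factor of mitosis genes, fell in each re-stimulated group, by −2.76 (LPS), −2.08 (CpG), −1.95 (Pam3CSK4) and −2.27 (Poly(I:C)), and was called in no acute group. Mybl2, which encodes B-Myb, fell by −1.63, −1.19 and −1.08 with re-stimulated LPS, CpG and Poly(I:C).

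Other regulators were called after acute stimulation. Cdkn1a, the kinase inhibitor p21, rose after acute LPS (2.30), CpG (1.84) and Poly(I:C) (1.84) and in re-stimulated Poly(I:C) cells (0.97). Skp2, a ubiquitin ligase subunit that targets inhibitors of cyclin kinases, fell after acute LPS (−1.83), CpG (−1.46) and Poly(I:C) (−1.47). The D cyclins parted. Ccnd2 rose after acute LPS (5.35) and CpG (2.99) and in re-stimulated Poly(I:C) cells (3.44). Ccnd1 fell after acute LPS (−1.08) and CpG (−1.53) and in re-stimulated CpG (−2.65) and Pam3CSK4 cells (−2.14). These comparisons share the naïve arrays with those of the report.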
